A study of Mus musculus with 12 samples.

Results

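Arteries and veins are told apart in the embryo by a small set of endothelial genes, and 9 of them were followed here in sorted cells of the mouse fetal liver (FL): *Efnb2*, *Gja4*, *Gja5*, *Sema3g*, *Unc5b*, and *Bmx* on the arterial side, and *Ephb4*, *Nr2f2*, and *Aplnr* on the venous side. They were chosen by name, and all 9 were found once among the 38127 genes counted in every library. Total RNA was sequenced from C57BL/6 embryonic liver cells that were negative for Ter119 and CD45, with 3 libraries in each of 4 groups. At E14.5 these were CD54+CD31+ cells (called CD31+ here, the endothelial fraction), CD54+CD31- cells (called CD324+, a fraction that includes hepatoblasts), and Kit+CD24+ cells without CD54 or CD31 (called P2, erythroid progenitors). The remaining group was CD54+CD31- cells at E18.5. The labels name no mutation or treatment in any group, and each group was defined by its surface phenotype alone, so that cells of more than 1 type could share a sort gate.

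In the embryo, ephrin-B2 (*Efnb2*) on arterial cells and its receptor EphB4 (*Ephb4*) on venous cells signal to each other at the border between the vessel types. Notch signaling together with SOXF transcription factors promotes the arterial program, and the nuclear receptor COUP-TFII (*Nr2f2*) represses it in veins. Connexin 37 (*Gja4*) and connexin 40 (*Gja5*) form gap junctions between arterial endothelial cells, and semaphorin 3G (*Sema3g*) is a secreted ligand for neuropilins made by arterial endothelium. UNC5B (*Unc5b*) is a netrin receptor of arterial and tip cells, BMX (*Bmx*) is a cytoplasmic kinase of the TEC family in arterial endothelium and endocardium, and the apelin receptor (*Aplnr*) marks venous and sprouting cells. Most liver endothelium is sinusoidal, a kind of its own that is neither artery nor vein, and several of the 9 genes are also used outside endothelium.

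Upstream sequence of 8 of the 9 genes was found in RefSeq on GRCm38.p6, and *Aplnr* had no entry. The 250 bases before the RefSeq start are shown for the ligand and receptor pair *Efnb2* and *Ephb4*, and for *Bmx* and *Gja5*, the genes whose windows held more than 1 searched motif. They lie at chr8:8661243-8661492 (minus strand), chr5:137349859-137350108 (plus), chrX:164258194-164258443 (minus), and chr3:97032152-97032401 (plus). All are written 5′ to 3′ in the direction of the gene, and capitals mark motif matches. The RefSeq start of *Gja5* lies inside the longer span that GENCODE gives the gene (chr3:96904693-97077416), so its window is not upstream of the first GENCODE start.
Efnb2: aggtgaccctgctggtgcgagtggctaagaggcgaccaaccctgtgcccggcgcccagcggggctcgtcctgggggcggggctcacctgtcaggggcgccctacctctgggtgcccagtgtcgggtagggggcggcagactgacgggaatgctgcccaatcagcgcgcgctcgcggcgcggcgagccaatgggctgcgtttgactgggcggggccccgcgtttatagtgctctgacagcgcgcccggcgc
Ephb4: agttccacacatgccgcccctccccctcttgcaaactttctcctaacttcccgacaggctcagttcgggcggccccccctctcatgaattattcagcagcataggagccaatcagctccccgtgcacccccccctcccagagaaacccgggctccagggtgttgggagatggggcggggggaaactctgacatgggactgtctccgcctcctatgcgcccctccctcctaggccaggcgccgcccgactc
Bmx: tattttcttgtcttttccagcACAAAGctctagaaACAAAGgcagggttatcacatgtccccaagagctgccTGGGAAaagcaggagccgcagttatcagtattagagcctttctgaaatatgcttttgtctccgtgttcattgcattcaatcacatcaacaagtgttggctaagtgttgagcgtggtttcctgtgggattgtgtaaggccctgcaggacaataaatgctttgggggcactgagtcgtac
Gja5: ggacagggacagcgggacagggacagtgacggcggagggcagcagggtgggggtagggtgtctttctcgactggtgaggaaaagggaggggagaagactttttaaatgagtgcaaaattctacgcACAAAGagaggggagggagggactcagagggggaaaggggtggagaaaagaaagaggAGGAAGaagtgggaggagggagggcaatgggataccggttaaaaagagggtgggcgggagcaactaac

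The motifs were the RBPJ core TGGGAA (the factor through which Notch acts), the SOX core ACAAAG, the ETS cores AGGAAG and CCGGAA, the GATA-factor core AGATAA, and the forkhead core TAAACA, each searched on both strands. No pair of matches overlapped in the windows shown. *Bmx* held ACAAAG at 229 and at 215 bases before the start and TGGGAA at 178 bases, and *Gja5* held ACAAAG at 125 bases and AGGAAG at 68 bases. TGGGAA was in 1 of the 8 windows and in 21.6% of 32851 RefSeq promoter windows of the same length. ACAAAG was in 2 of 8 and in 16.5% of all windows, AGGAAG in 3 of 8 and in 29.5%, and CCGGAA in 1 of 8 and in 12% (the last in *Unc5b*). AGATAA and TAAACA, which 9.99% and 12% of all windows held, matched none of the 8. These matches are descriptions of letters and no binding was measured.

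Gene positions are those of GENCODE vM21 on GRCm38. Expression is given as CPM, the read count scaled to a common library size after edgeR's TMM normalization over the 12 libraries. Total counts ranged from 40714017 to 64368883 per library. The sorted fractions carried the markers of their labels: the summed level of 10 endothelial markers, *Pecam1* (which encodes CD31) and *Cdh5* among them, was 5807 to 6398 CPM in CD31+ cells and 30.7 to 52.3 CPM in CD324+ cells. In P2 cells it was 39.4 CPM in replicate 1, 253 CPM in replicate 2, and 66.3 CPM in replicate 3, so replicate 2 stood apart. Hepatoblast markers summed to 62441 to 71445 CPM in CD324+ cells (at most 790 in CD31+ and 620 in P2 cells). Erythroid markers summed to 1462 to 1503 CPM in P2 cells (at most 288 in CD31+ and 280 in CD324+ cells). Sinusoidal endothelial markers summed to 6949 to 7053 CPM in CD31+ cells and to at most 100 CPM in CD324+ cells. The E18.5 libraries went partly against their label: 6 lung epithelial markers summed to 8171 to 18814 CPM there and to at most 4.40 CPM in any E14.5 library. In E18.5 cells, 8 stellate and mesenchymal markers also summed to 3939 to 4370 CPM, against 121 to 239 CPM in the E14.5 CD324+ cells. Hepatoblast markers were low in E18.5 replicate 1 (5560 CPM for 8 genes, against 33196 and 42547 CPM in the other two libraries). The part of these other cells in the E18.5 values below was not tested.

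By TMM-scaled CPM all 9 genes had their highest mean in CD31+ cells, and for each of them every CD31+ library lay above all 9 other libraries. Of the 16643 genes that passed the low count filter over the 12 libraries, 13.6% had that pattern. The margin was wide for *Aplnr*, whose lowest CD31+ library was 13.1 times its highest other library, and for *Gja4* (11.3 times). It was 1.91 times for *Ephb4* and only 1.04 times for *Unc5b*, whose difference from E18.5 cells did not pass the test (adjusted p = 0.372, edgeR) and turned sign with the authors' factors (-0.11), without a low count filter (-0.018), and with at least 10 counts in every library (-0.11).

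**Figure D1:**
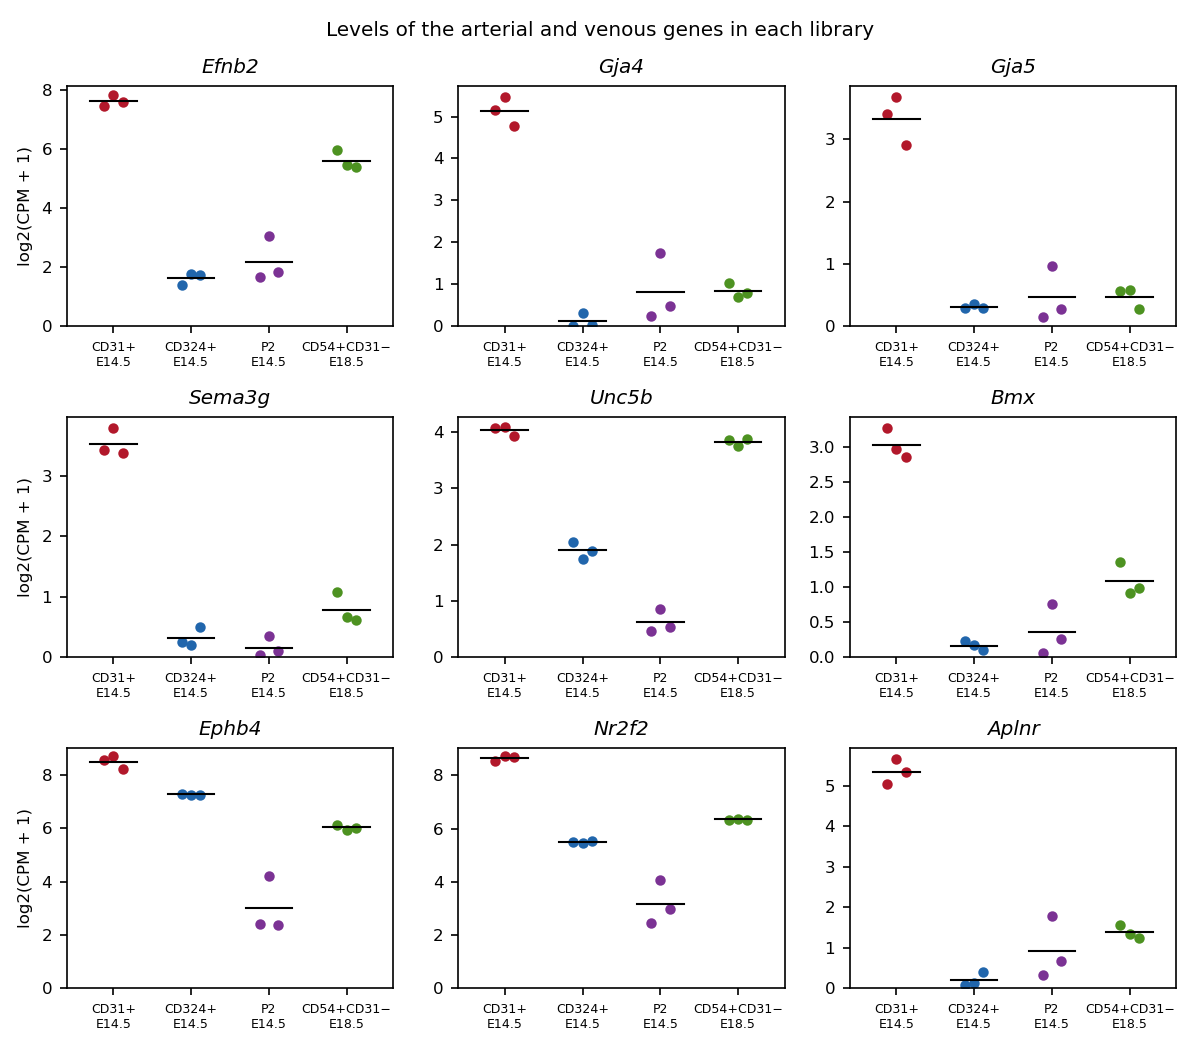
Level of each gene in each of the 12 libraries, as log2(CPM + 1) on the vertical axis, with the vertical scale set per gene; points are libraries (replicates 1 to 3 from left to right) and black lines are group means on that scale. The CD31+ libraries are the highest in every panel, with *Unc5b* in E18.5 cells close behind, and P2 replicate 2 is the highest P2 library throughout.

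*Efnb2* (ENSMUSG00000001300, chr8:8617434-8661242, minus strand), the arterial ligand, had 176, 227, and 196 CPM in the CD31+ libraries (200 ± 25.6, mean ± SD, n = 3). CD324+ cells had 1.61, 2.45, and 2.32 CPM, P2 cells 2.20, 7.33, and 2.56 CPM, and E18.5 cells 62.1, 43.6, and 41.3 CPM. The gene was thus high in endothelial cells, low in the other E14.5 cells, and intermediate at E18.5, with P2 and CD324+ libraries overlapping. In edgeR's quasi-likelihood test the log2 fold change of CD31+ against CD324+ cells was 6.54 (SE 0.45, adjusted p = 5.35e-07), and against P2 cells it was 5.64.

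*Ephb4* (ENSMUSG00000029710, chr5:137350109-137378669, plus strand), its venous receptor, had 378, 411, and 299 CPM in CD31+ cells (362 ± 57.8, n = 3). It was also plainly present in CD324+ cells, at 156, 152, and 150 CPM, and in E18.5 cells, at 68.7, 60.7, and 63.6 CPM. P2 cells had 4.27, 17.7, and 4.14 CPM. The 4 groups did not overlap and ran in the order CD31+, CD324+, E18.5, and P2. The log2 fold change of CD31+ against CD324+ cells was 1.24 (SE 0.45, adjusted p = 0.0328, edgeR), the smallest of the 9. That call was lost in DESeq2 (adjusted p = 0.0606) and whenever any 1 of the 6 libraries was left out (adjusted p 0.0505 to 0.103), while a fit of the 6 libraries alone gave a log2 fold change of 1.26 with adjusted p = 9.37e-06.

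*Nr2f2* (ENSMUSG00000030551, chr7:70351944-70366735, minus strand), the venous transcription factor, had 373, 419, and 414 CPM in CD31+ cells (402 ± 25.2, n = 3). E18.5 cells had 79.8, 81.9, and 79.5 CPM, CD324+ cells 43.9, 43.4, and 45.7 CPM, and P2 cells 4.43, 15.6, and 6.97 CPM. The groups again did not overlap, and replicates of the CD54+CD31- groups were nearly level with each other. The log2 fold change was 3.17 against CD324+ cells (SE 0.36, adjusted p = 2.27e-05, edgeR) and 5.49 against P2 cells. A noncoding gene on the opposite strand shares 643 of the 8625 exon bases of *Nr2f2*, and the strand setting of the counting is not given in the sources used here.

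The connexin genes were low outside CD31+ cells. *Gja4* (ENSMUSG00000050234, chr4:127311421-127314039, minus strand) had 34.6, 42.8, and 26.4 CPM in CD31+ cells, and its counts in the CD324+ libraries were 0, 8, and 1. P2 cells had 0.184, 2.33, and 0.404 CPM and E18.5 cells 1.04, 0.634, and 0.720 CPM, so that these overlapped. The log2 fold change of *Gja4* against CD324+ cells was 8.63 (SE 0.97, adjusted p = 2.18e-05, edgeR), which rests on those 9 reads and was 11.02 without CD324+ replicate 2. *Gja5* (ENSMUSG00000057123, chr3:96904693-97077416, plus strand) had 9.59, 11.8, and 6.5 CPM in CD31+ cells and at most 0.957 CPM in any other library. The P2, E18.5, and CD324+ libraries overlapped for *Gja5*, which shares 165 exon bases with *Gpr89* on the opposite strand. Its log2 fold change against CD324+ cells was 5.24 (SE 0.64, adjusted p = 3.95e-05, edgeR).

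Among the signaling genes, *Aplnr* (ENSMUSG00000044338, chr2:85136225-85139923, plus strand) had 31.9, 49.4, and 39.3 CPM in CD31+ cells and 0.0566, 0.0944, and 0.321 CPM in CD324+ cells. P2 cells had 0.253, 2.43, and 0.597 CPM, and E18.5 cells 1.97, 1.51, and 1.37 CPM. P2 libraries overlapped both other groups, with P2 replicate 2 above every E18.5 library, while every E18.5 library lay above the CD324+ libraries. The log2 fold change of CD31+ against CD324+ cells was 7.89 (SE 0.78, adjusted p = 7.80e-06, edgeR).

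*Sema3g* (ENSMUSG00000021904, chr14:31217860-31230352, plus strand) had 9.79, 12.8, and 9.36 CPM in CD31+ cells, and E18.5 cells followed with 1.1, 0.582, and 0.540 CPM. CD324+ and P2 libraries overlapped below that, at 0.157 to 0.419 CPM and 0.0230 to 0.271 CPM. *Bmx* (ENSMUSG00000031377, chrX:164192842-164258193, minus strand) had the same order of magnitude, with 8.60, 6.79, and 6.19 CPM in CD31+ cells and 1.56, 0.893, and 0.983 CPM in E18.5 cells. CD324+ cells had at most 0.170 CPM and P2 cells at most 0.687 CPM of *Bmx*, and these 2 groups overlapped. The log2 fold changes against CD324+ cells were 5.30 for *Sema3g* (SE 0.49, adjusted p = 5.20e-06) and 5.85 for *Bmx* (SE 0.69, adjusted p = 3.18e-05, edgeR).

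*Unc5b* (ENSMUSG00000020099, chr10:60762593-60831581, minus strand) had nearly level values in CD31+ and E18.5 cells. CD31+ cells had 15.8, 15.9, and 14.1 CPM, and E18.5 cells, with 13.5, 12.5, and 13.6 CPM, came just below them. CD324+ cells had 3.14, 2.36, and 2.71 CPM and P2 cells 0.390, 0.812, and 0.443 CPM. The log2 fold change was 2.47 against CD324+ cells (SE 0.23, adjusted p = 5.27e-06, edgeR) and 4.80 against P2 cells.

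Levels of different genes were compared only per kilobase of annotated exon, in CPM per kb. In CD31+ cells the order began with 2 of the 3 venous genes: *Ephb4* had 78.1 ± 12.5, *Nr2f2* 46.6 ± 2.92, and the arterial ligand *Efnb2* 29.1 ± 3.73 CPM per kb (SD, n = 3). *Gja4* followed at 20.5 ± 4.88 and *Aplnr* at 10.9 ± 2.36 CPM per kb, and up to this point neighbors in the order did not overlap. *Unc5b* (2.44 ± 0.161), *Sema3g* (2.34 ± 0.409), *Bmx* (2.33 ± 0.406), and *Gja5* (1.62 ± 0.463 CPM per kb) overlapped their neighbors. The top of the order depends on the length used, since with the longest transcript *Nr2f2* had 95.3 and *Ephb4* 83.5 CPM per kb.

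The ratio of *Efnb2* to *Ephb4* per kb, ligand over receptor, was 0.315, 0.373, and 0.445 in the CD31+ libraries (0.378 ± 0.0653, n = 3). P2 cells, where both genes were low, had 0.349 ± 0.0694, and the 2 groups overlapped. CD324+ cells had 0.00946 ± 0.00214, as *Ephb4* was present there with little *Efnb2*. E18.5 cells had 0.512 ± 0.0888, with 1 library inside the range of CD31+ cells. In sorted bulk RNA these ratios mix all cells in the gate, and fewer cells of a type cannot be told apart from less RNA per cell.

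The comparison of CD31+ with CD324+ cells asks which genes mark the endothelial fraction against the hepatoblast-rich fraction. All 9 genes were higher in CD31+ cells at adjusted p below 0.05, where 31.7% of the 15461 genes tested were higher, and their median log2 fold change was 5.30 against -0.03 over all genes. *Gja4*, *Sema3g*, and *Bmx* passed the low count filter at E14.5 only through the CD31+ libraries, so their direction was partly set by the filter. Without that filter all 9 were higher in CD31+ than in CD324+ cells too, where 20.1% of 23098 genes were. Against P2 cells all 9 were again higher (39.4% of all genes were), with log2 fold changes from 4.44 for *Gja5* to 6.39 for *Sema3g* and a median of 5.20 against 0.13 over all genes. When libraries were scaled by the authors' factors, the median of all genes shifted by 0.37 and 66.1% rather than 53.4% of the genes called against P2 cells were higher, and the 9 genes kept their direction and calls. In the comparison with CD324+ cells the same scaling shifted the median by 0.11. Without P2 replicate 2 the log2 fold changes against P2 cells ran from 5.19 for *Unc5b* to 7.61 for *Sema3g*, and all 9 were called.

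**Figure D2:**
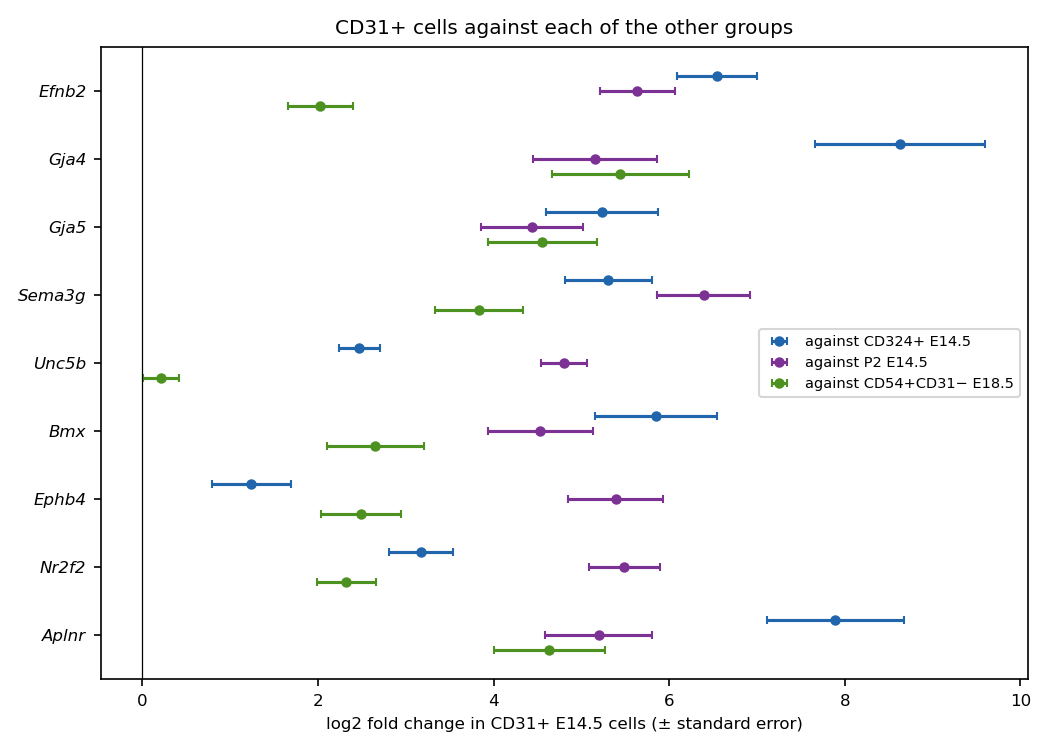
Log2 fold change of CD31+ E14.5 cells against each of the other 3 groups (horizontal axis, error bars ± standard error from edgeR's quasi-likelihood fit; the vertical line marks no difference). All 9 genes lie to the right of the line against CD324+ and P2 cells, and *Unc5b* against E18.5 cells is the value nearest to it, at 0.21.

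The level of each gene in the other groups was compared with that of 10 endothelial markers, each as a percentage of its own CD31+ mean. In CD324+ cells the markers stood at 0.335% to 1.13%, and 6 of the 9 genes lay above that range. *Ephb4* was at 42.1%, *Unc5b* at 17.9%, and *Nr2f2* at 11%, followed by *Gja5* (2.62%), *Sema3g* (2.43%), and *Bmx* (1.71%). The last of these values rest on few reads in the CD324+ libraries together: 26 for *Gja5*, 29 for *Sema3g*, and 13 for *Bmx*. *Bmx* in CD324+ replicate 3 was at 1.03%, inside the marker range. *Efnb2* (1.07%) and *Aplnr* (0.391%) lay within the marker range and the mean of *Gja4* (0.266%) below it. *Aplnr* and *Gja4* also rest on few reads, 18 and 9. *Gja4* in CD324+ replicate 2 was at 0.727%, inside the marker range. In P2 cells the markers stood at 1.77% to 2.82% and the 9 genes at 1.16% to 4.61%, 5 of them within the marker range. Replicate 2 was the highest P2 library for all of these genes and markers, and it raised these means. *Gja5*, for example, was at 1.24%, 10.3%, and 2.28% in P2 replicates 1 to 3. In E18.5 cells the markers ranged from 1.77% to 11% and 5 genes lay above them, namely *Unc5b* (86.3%), *Efnb2* (24.5%), *Nr2f2* (20.0%), *Ephb4* (17.7%), and *Bmx* (15.9%).

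**Figure D3:**
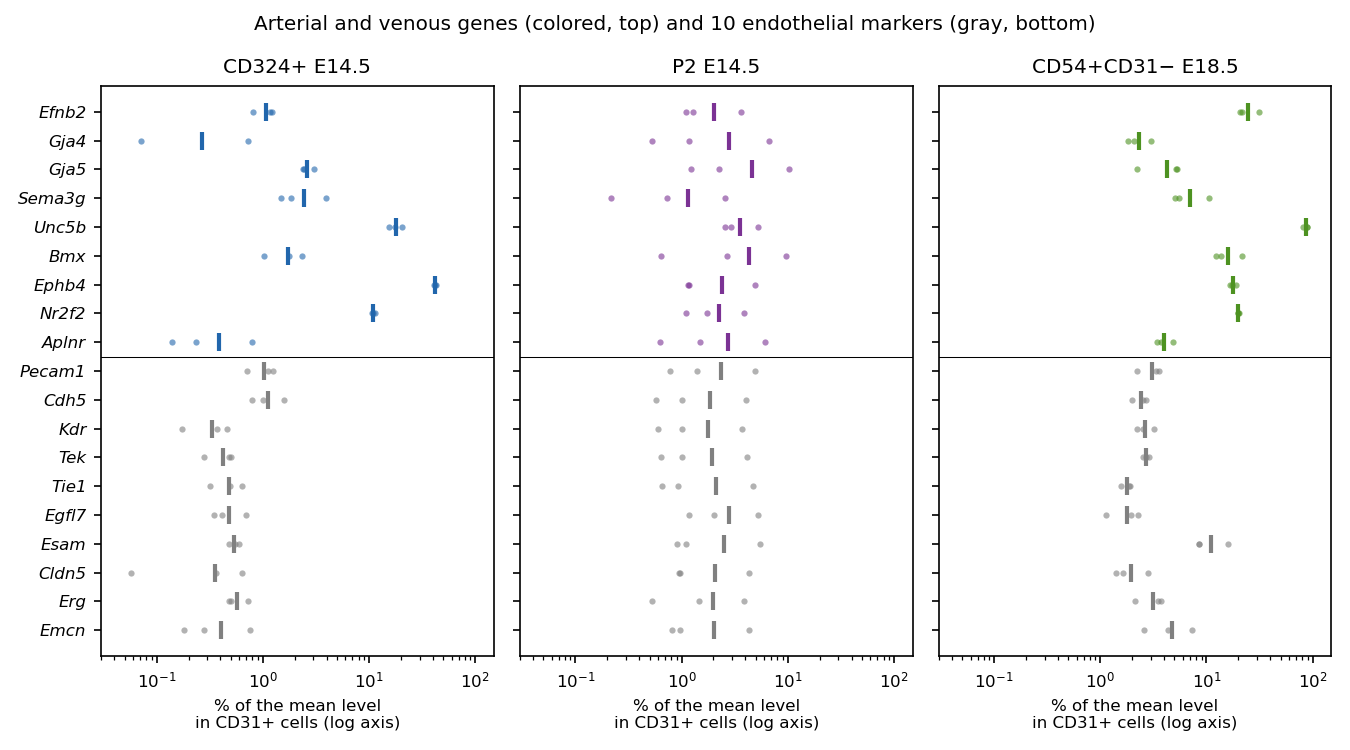
Level of the 9 genes (colored, upper block) and of 10 endothelial markers (gray, lower block) as a percentage of the mean level in CD31+ cells, on a log axis; small points are libraries, ticks are means of 3 libraries, and the 1 CD324+ library without a *Gja4* read is not drawn. *Ephb4*, *Unc5b*, and *Nr2f2* stand to the right of the markers in CD324+ cells, while in P2 cells the means of the 9 genes (1.16% to 4.61%) spread around those of the markers (1.77% to 2.82%). Replicate 2 is the highest P2 library throughout.

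The comparison of P2 with CD324+ cells sets an erythroid progenitor against a hepatoblast-rich fraction. *Ephb4* (log2 fold change -4.15, adjusted p = 3.42e-05), *Nr2f2* (-2.32, adjusted p = 0.000175), and *Unc5b* (-2.33, adjusted p = 1.68e-05, edgeR) were lower in P2 cells, where 36.1% of all genes tested were lower. *Aplnr* (2.69, adjusted p = 0.0205) and *Gja4* (3.48, adjusted p = 0.0224) were higher, as were 33.8% of all genes. *Gja4* passed the low count filter here only through the CD31+ libraries of the joint fit, as did *Bmx* and *Sema3g*. *Efnb2*, *Bmx*, *Gja5*, and *Sema3g* did not pass the test, with log2 fold changes of 0.90, 1.32, 0.80, and -1.09. With the authors' factors the median of all genes shifted by -0.26 and 38.2% of all called genes were higher rather than 48.3%, and the same number of the 9 genes, 2, was called higher.

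P2 replicate 2 held the 9 genes at 1.95 to 7.93 times the mean of the other two P2 libraries (median 5.41), and the 10 endothelial markers at 3.31 to 5.99 times (median 4.72). Erythroid markers were at 0.770 to 1.13 times and hepatoblast markers at 0.805 to 1.20 times in the same library. Without it, *Aplnr* (log2 fold change 1.37, adjusted p = 0.0606) and *Gja4* (1.80, adjusted p = 0.0744) were not called, *Gja5* turned to -0.55, and *Sema3g* was called lower (-2.30, adjusted p = 0.00720, edgeR). *Ephb4* (-5.19), *Nr2f2* (-2.96), and *Unc5b* (-2.72) were called lower without that library too. *Aplnr* and *Gja4* also lost their calls without CD324+ replicate 1 (2.31, adjusted p = 0.0697, and 2.93, adjusted p = 0.0713). Leaving out CD324+ replicate 2 ended the call of *Aplnr* (2.44, adjusted p = 0.0621) and gave 5.94 for *Gja4*, and leaving out CD324+ replicate 3 ended that of *Gja4* (2.98, adjusted p = 0.0807).

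Between the 2 ages of CD54+CD31- cells, 7 of the 9 genes were higher at E18.5 and 1 was lower, where 35.9% and 33.5% of the 15863 genes tested were. *Efnb2* was higher at E18.5 by 4.72 on the log2 scale (SE 0.25, adjusted p = 2.26e-05, edgeR). *Aplnr* (3.49), *Bmx* (3.39), *Gja4* (3.36), *Unc5b* (2.45), *Sema3g* (1.69), and *Nr2f2* (1.04) were higher as well. *Ephb4* was lower at E18.5 by 1.06 on the log2 scale (SE 0.10, adjusted p = 0.000114), and *Gja5* did not pass the test (0.87, adjusted p = 0.132). The receptor thus went the other way from its ligand. The authors' factors shifted the median of all genes by 0.23 in this comparison. *Sema3g* lost its call without E18.5 replicate 1 (1.26, adjusted p = 0.0608), without E14.5 replicate 1 (1.5, adjusted p = 0.0744), and without E14.5 replicate 2 (1.43, adjusted p = 0.0797). *Gja4*, with counts of 0, 8, and 1 at E14.5, lost it without E14.5 replicate 3 (2.84, adjusted p = 0.0603), and without E14.5 replicate 2 its log2 fold change was 5.86.

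The other markers differed between the ages as well. The E18.5 libraries also carried lung and mesenchymal markers, so age and cell content cannot be told apart in this comparison. The summed endothelial markers were 141 to 207 CPM at E18.5 against 30.7 to 52.3 CPM at E14.5, with all 10 called higher and a median log2 fold change of 2.65 against 2.45 for the 9 genes. Smooth muscle markers summed to 68.3 to 82.4 CPM at E18.5 against 4.75 to 7.05 CPM, and mesothelial markers to 272 to 467 CPM against 1.67 to 3.81 CPM. Without E18.5 replicate 1, which was low in hepatoblast markers, *Efnb2* was higher by 4.49 and *Ephb4* was lower (-1.13), both called. The parts of lung, mesenchymal, and endothelial RNA in these values were not tested.

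Against the E18.5 cells, 8 of the 9 genes were higher in CD31+ E14.5 cells (38.8% of the 16643 genes tested were), but phenotype and age differ together here and cannot be told apart. The log2 fold changes ran from 2.03 for *Efnb2* to 5.44 for *Gja4*. *Unc5b* was the exception, at 0.21 (SE 0.20, adjusted p = 0.372, edgeR). With the authors' factors 43.2% of the genes called were higher rather than 56.7%, and the median of all genes shifted by -0.32.

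Other genes of the arterial and venous programs were taken from lists that did not include the 9. Of 19 other arterial genes tested between CD31+ and CD324+ cells, 16 were higher and 3 lower (median log2 fold change 3.85). Of all genes tested there, 31.7% were higher and 34.0% lower. Sinusoidal markers summed to 6949 to 7053 CPM in CD31+ cells, and whether this list marks arterial cells there was not tested. The coreceptor *Nrp1* had 642 ± 22.6 CPM in CD31+ and 97.5 ± 5.73 CPM in CD324+ cells, and the Notch receptor *Notch1* 405 ± 15.4 and 33.4 ± 1.24 CPM (SD, n = 3). The 3 lower genes were *Alpl*, a phosphatase (log2 fold change -5.58), *Fbln5*, an elastic fiber protein (-1.31), and the chemokine *Cxcl12* (-4.93), which had 169 ± 0.372 CPM in CD324+ cells. All 10 other venous genes were higher in CD31+ cells (median 6.86). They were led by *Lyve1* (1924 ± 175 CPM), *Flt4* (924 ± 34.4 CPM), and *Tek* (661 ± 109 CPM), and *Lyve1* is also a sinusoidal marker. *Tek* and *Emcn* of this list are also among the 10 endothelial markers used above, so the count is partly one of general endothelial genes. The list also holds *Vwf* and *Selp*, which megakaryocytes express too, and 5 megakaryocyte markers summed to 268 to 481 CPM in CD31+ cells against 36.6 to 45.7 CPM in CD324+ cells, all 5 called higher. Their part in the values of *Vwf* and *Selp* was not tested. Against P2 cells all 19 arterial and all 10 venous genes were higher, as were 39.4% of all genes tested.

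At E18.5 against E14.5 in CD54+CD31- cells, 18 of 21 other arterial genes were higher and 2 lower. Of the venous genes 8 of 10 were higher and 1 lower, against 35.9% and 33.5% of all genes tested. The transcription factor *Mecom* had 482 ± 136 CPM at E18.5, 1.57 ± 0.661 CPM in E14.5 CD324+ cells, and 159 ± 21.8 CPM in CD31+ cells, so that E18.5 cells were above CD31+ cells (log2 fold change of CD31+ cells -1.60, adjusted p = 0.0125, edgeR). The neuropilin *Nrp2* had 164 ± 45.6 CPM at E18.5 and 359 ± 10.6 CPM in CD31+ cells. Of the arterial list, 11 of 21 genes were higher and 8 lower in CD31+ than in E18.5 cells, and all 10 venous genes were higher. Of all genes tested in that comparison, 38.8% were higher and 29.7% lower. These lists differ in the same libraries that carried lung and mesenchymal markers.

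**Figure D4:**
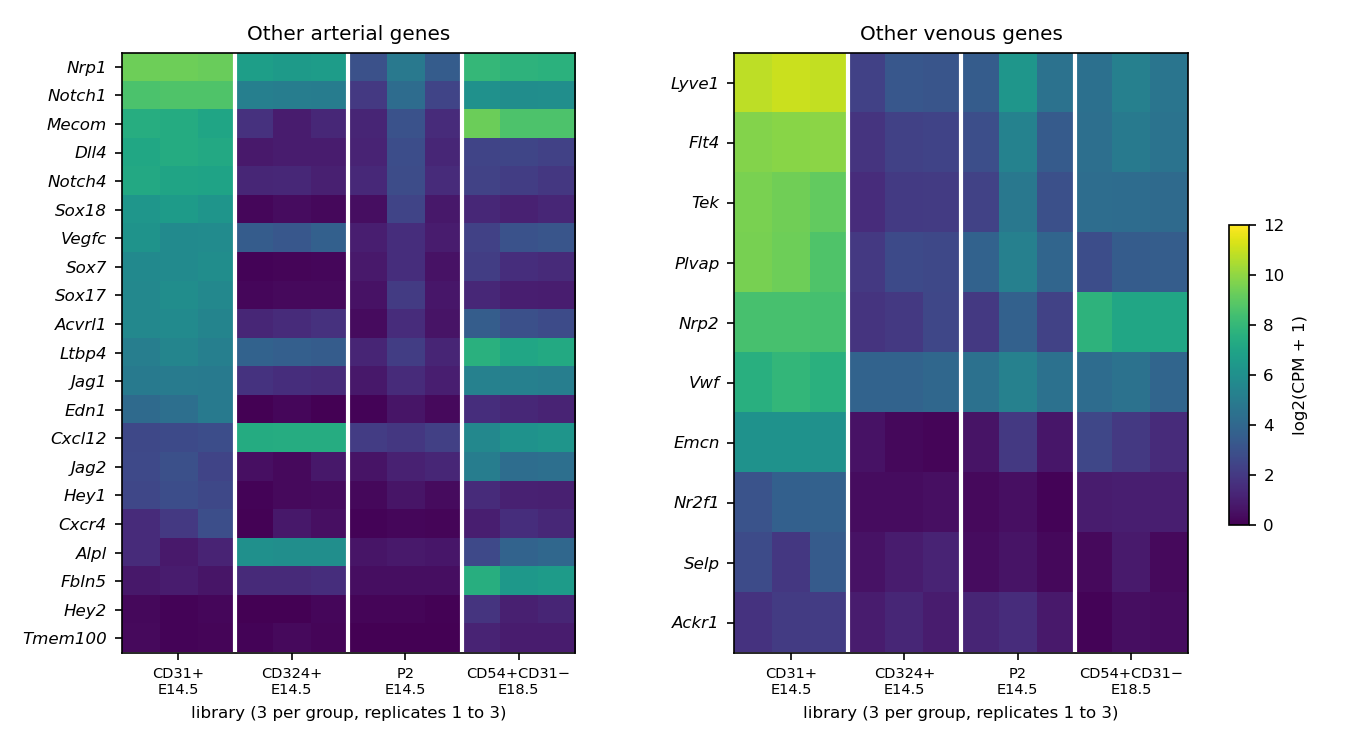
Level of the other arterial genes (left) and other venous genes (right), 1 gene per row, in the 12 libraries (columns, 3 per group), as log2(CPM + 1) in color. Most rows are brightest in the CD31+ columns, whereas *Cxcl12* and *Alpl* are brightest in CD324+ cells and *Mecom*, *Ltbp4*, *Fbln5*, *Jag1*, *Jag2*, *Hey2*, and *Tmem100* in E18.5 cells.

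The families of the 9 genes are read against the 31.7% of all genes tested that were higher, and the 34.0% that were lower, in CD31+ than in CD324+ cells. Between the ages of CD54+CD31- cells, 35.9% of all genes tested were higher at E18.5 and 33.5% lower. Of 7 other ephrin-B and Eph genes tested, 3 were higher in CD31+ than in CD324+ cells and the other 4 did not pass the test. *Efnb1*, a second ephrin-B ligand, had 107 ± 12.7 CPM in CD31+ and 26.8 ± 1.4 CPM in CD324+ cells (log2 fold change 1.99), and *Epha4*, a receptor that also binds ephrin-B, 5.92 ± 0.858 and 2.71 ± 0.863 CPM (1.12). *Ephb2* was not called (0.20, adjusted p = 0.613, edgeR). At E18.5, 6 of the 7 were higher than at E14.5, *Epha4* by 4.90 on the log2 scale.

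Of 12 other class 3 semaphorins, neuropilins, and plexins, 8 were higher and 2 lower in CD31+ than in CD324+ cells. *Plxnd1*, a semaphorin receptor of endothelium, had 1490 ± 72.8 CPM in CD31+ cells and 13.5 ± 1.08 CPM in CD324+ cells. In CD54+CD31- cells, 12 of 13 were higher at E18.5 than at E14.5, among them *Sema3a* (log2 fold change 6.20). A list of netrins and netrin receptors, to which *Robo4* had been added, held 8 genes tested. Of these, 3 were higher in CD31+ than in CD324+ cells (*Ntn4*, *Robo4*, and *Unc5a*) and the other 5 did not pass the test. *Robo4*, an endothelial receptor, had 215 ± 3.12 against 0.831 ± 0.511 CPM, and the netrin *Ntn4* 44.5 ± 3.68 against 3.90 ± 0.0877 CPM. The netrin receptor *Unc5a* had 19.5 ± 2.41 against 1.13 ± 0.248 CPM. *Neo1*, a netrin receptor, had 24.7 ± 2.56 and 31.6 ± 1.01 CPM and was not called (adjusted p = 0.142, edgeR).

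Of 4 other connexin genes tested, *Gja1* and *Gjc1* were higher in CD31+ than in CD324+ cells and *Gjb1* and *Gjb2* were lower. *Gja1* (connexin 43) had 107 ± 20.1 CPM in CD31+ cells, 2.5 ± 1.33 CPM in CD324+ cells, and 344 ± 100.4 CPM in E18.5 cells. *Gjb1* (connexin 32, the main hepatocyte connexin) had 123 ± 2.07 CPM in CD324+ and 1.64 ± 0.703 CPM in CD31+ cells. The apelin ligands went opposite ways: *Apln* was higher in CD31+ than in CD324+ cells (log2 fold change 8.20, adjusted p = 4.04e-06) and *Apela* lower (-4.24, adjusted p = 0.000730, edgeR), though the latter had at most 0.962 CPM in any E14.5 library.

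Among the TEC kinases, *Btk* was higher in CD31+ than in CD324+ cells (log2 fold change 1.13), and *Tec* was not called (0.46, adjusted p = 0.0810, edgeR). *Btk*, a kinase of hematopoietic cells, was highest in P2 cells at 69.0 ± 4.42 CPM, against 20.4 ± 6.73 CPM in CD31+ cells. Of the other COUP factors, *Nr2f1* was higher (4.89) and *Nr2f6* lower (-1.49) in CD31+ than in CD324+ cells.

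The genes whose profiles over the 12 libraries were nearest to each of the 9 were found by the root mean square difference of log2(CPM + 1) values, each gene centered on its mean. For *Gja4* the nearest was *Sox17*, a SOXF transcription factor (0.186), and for *Bmx* it was *Apln*, the apelin ligand (0.183). *Nr2f2* was nearest to *Smad6* (0.234), with *Shroom2* and *Notch1* next, and *Efnb2* to *Lama4* (0.218), a laminin chain of vascular basement membrane. *Ephb4* was nearest to *Cdc42ep1* (0.241), with the basement membrane genes *Nid1* and *Nid2* next. *Aplnr* was nearest to *Vash1* (0.178), *Unc5b* to *Hspa12a* (0.182), *Gja5* to *Twist1* (0.144), and *Sema3g* to *Pgbd5* (0.178). Within the 9, *Gja4* and *Aplnr* were the closest pair (0.259), although 1 is listed as arterial and the other as venous, and *Efnb2* and *Ephb4* were the farthest apart (2.16). The profiles were centered but not scaled, so the distances depend on level too. *Gja4* and *Aplnr* had similar CD31+ means (34.6 and 40.2 CPM) and low levels elsewhere. These distances describe 12 libraries in 4 groups and carry no test.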

How the data were processed

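Cells were sorted from FL, rRNA was removed enzymatically, and libraries were made with a stranded total RNA kit. Per the labels, the authors used cutadapt 1.11, STAR 2.5.0a, featureCounts 1.4.6-p3, and DESeq2 on mm10 (GRCm38). The authors deposited raw counts per gene and a score, which is the count times 1 factor per library, rounded. Counts were used for tests and levels, and the score for the authors' factors only.

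Tests used edgeR 4.0.16 in R 4.3.3 (TMM, filterByExpr, quasi-likelihood, Benjamini-Hochberg over all genes tested, adjusted p below 0.05). The 9 E14.5 libraries were fitted together, the 6 CD54+CD31- libraries apart, and all 12 for CD31+ against E18.5 cells. Standard errors follow from the fold change and F statistic. The scripts were tested on simulated data. Exon lengths and coordinates came from GENCODE vM21, which held 37932 of the 38127 identifiers.

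The study states independent litters as replicates. Between CD31+ and CD324+ cells, deviations of same-numbered libraries from their group means correlated at 0.334, 0.260, and 0.122. Libraries of different number were not compared, so whether the number pairs these samples was not tested. The main tests took the libraries as unpaired, and replicate number entered as a block in an alternative fit only. Replicate pairs differed by more than sampling noise.

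Members and lists were chosen with earlier results of these data known. Beyond the 9 genes, those named were the 3 highest of each list in CD31+ cells, the highest in each other group, and the nearest profiles, together with the lower calls of the arterial list and *Gjb2* and *Nr2f1*, which were added after their values were seen. Not every gene this rule selects is reported here. The 3 libraries per group limit the precision, and for genes with few reads outside CD31+ cells, such as *Gja4* and *Bmx*, counting error does too.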

Additional observations from a re-analysis of the deposited data

How the results depend on the processing

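Of 629 fold changes of single genes under alternatives, 601 kept their direction and side of the threshold, 18 lost the call, 6 gained it, and 4 changed sign. The sign changes were *Gja5* in P2 against CD324+ cells without P2 replicate 2 (-0.55, with a range of -0.55 to 1.22 over libraries left out in turn) and *Unc5b* in CD31+ against E18.5 cells with the authors' factors (-0.11), without a low count filter (-0.018), and with at least 10 counts in every library (-0.11), none of them past the threshold. That minimum left 4 of the 9 genes to test, since the genes low outside CD31+ cells were removed. All 4 were called in CD31+ against CD324+ cells (8418 of 12016 genes in all) and against P2 cells (9502 of 12016). In P2 against CD324+ cells 3 were called (9118 of 12016 genes in all). Between ages 4 were called (9146 of 13147), and in CD31+ against E18.5 cells 3 (8461 of 11961). Leaving out 1 library at a time gave 3 to 7 of the 9 called in P2 against CD324+ cells. Over all genes 10220 to 10522 were then called, of 15909 to 16014 tested. Fitting the 6 P2 and CD324+ libraries alone left 6 genes to test, without *Gja4*, *Bmx*, and *Sema3g*. Of these 6, 4 were called, where 10817 of all 14320 genes tested were called.

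When replicate number entered as a block, 9 of 9 genes were called in CD31+ against CD324+ cells (10326 of 15461 genes in all). The same 9 were called in CD31+ against P2 cells (11460 of 15461), and 8 in CD31+ against E18.5 cells (11338 of 16643). In P2 against CD324+ cells the block gave 6, adding *Efnb2* (0.78, adjusted p = 0.0459, edgeR), among 10910 of 15461 genes. Between ages it gave 7, without *Sema3g* (1.70, adjusted p = 0.0558), among 10329 of 15863 genes. The block changed no other call of the 9 genes. Apart from CD31+ and CD324+ cells, the lowest same-number correlation was under 0.1 for each pair of groups. Replicate 3 of CD31+ and P2 cells nevertheless correlated at 0.336. Whether same-numbered libraries of these groups share more than a number was not tested.

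With the longest transcript as length, levels in CD31+ cells were 41.6 for *Efnb2*, 95.3 for *Nr2f2*, 2.53 for *Gja5*, and 2.61 CPM per kb for *Unc5b*. The *Efnb2* to *Ephb4* ratio was then 0.505 in CD31+, 0.0127 in CD324+, 0.467 in P2, and 0.685 in E18.5 cells, in the same order as with exon lengths.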
